A study of Mus musculus with 11 samples.

Results

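The 10 transcription factors described here are *Pdx1*, *Nkx6-1*, *Nkx2-2*, *Mafa*, *Neurod1*, *Pax6*, *Isl1*, *Foxa2*, *Rfx6* and *Insm1*. They were chosen by gene symbol, as factors known for beta cell identity or for endocrine cells of the islet in general, and each symbol matched 1 row of a table of 55401 genes. The question put to the data was which of them were restricted to beta cells and which were shared with the other cells of the islet, and whether any differed between beta cell fractions sorted by a reporter of *Nnat*, the imprinted gene for neuronatin. All 10 passed the filter on low counts, with between 959 and 36609 counts in each library.

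Transcription factors bind short DNA motifs near genes and set which of them a cell transcribes. In the pancreas, a layered set of homeodomain, basic helix-loop-helix, forkhead, zinc finger and winged helix factors first makes the endocrine lineage and later keeps each hormone-producing cell type distinct. MAFA, NKX6-1 and PDX1 are known as activators of insulin and of beta cell genes, whereas NEUROD1, PAX6, NKX2-2, ISL1, RFX6 and INSM1 are known from several endocrine cell types, and FOXA2 from the whole gut and pancreas endoderm.

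The data were poly(A) RNA-seq counts from 11 libraries of islet cells separated by FACS from 4 male C57BL6/J mice on chow, 10 weeks old by the labels and 8 weeks by the study's text. All the mice carried RIP-Cre, in which the rat insulin promoter drives Cre, together with STOP-tdTomato, which Cre switches on, and the transgene Nnat-EGFP. Beta cells were thus defined by tdTomato, which follows the insulin promoter of the transgene, and *Nnat* activity by EGFP, which is made from the transgene and not from the endogenous gene. The study reports that EGFP and endogenous NNAT staining overlapped in the pancreas of reporter mice, and concludes that the reporter mimics *Nnat*. By label, 4 libraries were NNAT-positive beta cells, 4 were NNAT-negative beta cells and 3 were non-beta cells, each replicate being 1 mouse. No non-beta library of mouse 4 was analysed here, so that mouse entered the comparison with non-beta cells only through the spread and the normalisation.

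Total counts per library were between 30420352 and 43238376, so that 3 counts, the floor used here, were at most 0.102 CPM (counts-per-million, with library sizes normalised by TMM), which covers counting error only. *Nnat* itself went against the labels of the beta cell fractions. It averaged 61.0 ± 26.8 CPM (SD, *n*=4) in the NNAT-positive-labelled libraries and 93.8 ± 40.1 CPM (SD, *n*=4) in the NNAT-negative-labelled ones, and it was lower in the NNAT-positive-labelled library in 4 of 4 mice (log2 fold change −0.62, SE 0.17). The fractions are therefore named by their labels throughout, and the main comparison set the mean of both beta cell fractions against the non-beta cells, which does not depend on which name belongs to which fraction. Over the 6 beta cell markers (*Ins1*, *Ins2*, *Iapp*, *Ucn3*, *G6pc2* and *Slc2a2*), the summed level was between 180303 and 425130 CPM in the 8 beta cell libraries and between 10476 and 25869 CPM in the 3 non-beta libraries. The non-beta libraries held markers of alpha cells (119536 to 167253 CPM over 5 genes) and delta cells (6898 to 13508 CPM over 4 genes). They also held those of acinar cells (12692 to 48228 CPM over 5 genes), mesenchymal cells (2634 to 6314 CPM over 5 genes) and endothelial cells (1610 to 1831 CPM over 5 genes), which are not endocrine.

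The beta cell libraries of mouse 4 stood apart from those of mice 1 to 3. The long non-coding RNA *Meg3* was 38.6-fold and *Malat1* 34.4-fold higher there in the NNAT-positive-labelled library than the mean of the other 3, and *Ins1* was 0.549 times that mean. In CPM scaled by TMM, all 10 factors were also outside the range of mice 1 to 3 in both beta cell fractions of mouse 4. Of all genes, 21.8% were above that range in both fractions and 19.4% below it. The places of the factors, which depend in part on the scaling, are described further on. Calls, orders and coefficients of variation are given with and without mouse 4.

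The genes lie on several chromosomes of GRCm38 (mm10). *Pdx1* (ENSMUSG00000029644.7) lies on chromosome 5 from 147269959 to 147275848 on the plus strand, and *Nkx6-1* (ENSMUSG00000035187.10) on the same chromosome from 101658139 to 101664996 on the minus strand. *Mafa* (ENSMUSG00000047591.5) is a gene of 1 exon on chromosome 15 from 75745490 to 75748228 on the minus strand. Chromosome 2 holds 5 of the 10 factors, namely *Neurod1* (ENSMUSG00000034701.9, 79452521 to 79456751, minus), *Pax6* (ENSMUSG00000027168.21, 105668900 to 105697364, plus), *Insm1* (ENSMUSG00000068154.5, 146221921 to 146225020, plus), *Nkx2-2* (ENSMUSG00000027434.11, 147177546 to 147194243, minus) and *Foxa2* (ENSMUSG00000037025.11, 148042877 to 148046969, minus). *Rfx6* (ENSMUSG00000019900.19) lies on chromosome 10 from 51677756 to 51730432 on the plus strand and *Isl1* (ENSMUSG00000042258.13) on chromosome 13 from 116298281 to 116309689 on the minus strand. Whether the counting used the strand is not given in the sources used here. *Neurod1* shares 201 exonic bases with *Cerkl* on its own strand and 154 with *Gm26755* on the other, and *Nkx2-2* shares 278 with the antisense gene *Nkx2-2os*, which had at most 17 counts in any library. Whether reads in those bases were counted for a gene or for neither is not given there either. *Plut* lies antisense to *Pdx1* and *Pax6os1* antisense to *Pax6*, each with 0 shared exonic bases.

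The sequence just upstream of the start site is shown for 1 factor that was far lower in non-beta cells, *Pdx1*, and for 3 that differed less, *Nkx2-2*, *Pax6* and *Isl1*. Binding there by any of the 10 factors was not tested. The windows are from RefSeq on GRCm38.p6, 5′ to 3′ on the strand of the gene, and hold the bases among the 250 before the first RefSeq start that lie in no annotated exon of the gene. RefSeq windows were matched for 8 of the 10 factors, all but *Mafa* and *Insm1*. Capitals mark every match, on either strand, to 1 of 7 short motifs.
Pdx1 (chr5:147269847-147269958, plus strand): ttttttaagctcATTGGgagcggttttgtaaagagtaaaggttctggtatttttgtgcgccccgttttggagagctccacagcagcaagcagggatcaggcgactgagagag
Nkx2-2 (chr2:147186456-147186652, minus strand): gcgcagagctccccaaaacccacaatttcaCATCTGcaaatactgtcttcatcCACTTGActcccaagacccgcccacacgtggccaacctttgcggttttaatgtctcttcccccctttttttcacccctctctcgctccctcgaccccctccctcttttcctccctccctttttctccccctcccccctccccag
Pax6 (chr2:105668646-105668895, plus strand): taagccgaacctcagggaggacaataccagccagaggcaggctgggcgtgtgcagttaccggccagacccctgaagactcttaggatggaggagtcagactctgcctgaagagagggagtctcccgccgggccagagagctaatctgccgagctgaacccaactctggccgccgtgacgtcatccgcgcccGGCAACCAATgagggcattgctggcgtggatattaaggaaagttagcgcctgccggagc
Isl1 (chr13:116309690-116309938, minus strand): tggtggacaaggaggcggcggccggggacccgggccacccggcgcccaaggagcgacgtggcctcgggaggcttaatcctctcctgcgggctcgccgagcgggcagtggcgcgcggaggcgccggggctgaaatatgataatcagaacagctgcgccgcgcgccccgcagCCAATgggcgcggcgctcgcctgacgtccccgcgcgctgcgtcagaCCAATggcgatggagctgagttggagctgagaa
The *Nkx2-2* window lies within an intron of the longer gene model, the others upstream of the gene.

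The motifs searched, each with its letters on the other strand, were the homeodomain core TAATTA, the E-box CAGATG or CATCTG, the Maf core TGCTGA or TCAGCA, the forkhead core TGTTTAC or GTAAACA, the RFX core GTTGCC or GGCAAC and the NK2 site TCAAGTG or CACTTGA. The CCAAT box, CCAAT or ATTGG, was added after the windows had been read. *Pdx1* held CCAAT boxes 238 and 74 bases before the start, the latter among exonic bases that are not printed. In the *Nkx2-2* window the matches were an E-box, the kind of site that NEUROD1 binds, 220 bases before the start, and an NK2 site, the kind that NKX2-2 itself binds, 197 bases before it. In *Pax6* an RFX core 59 bases before the start shared a C with a CCAAT box, and *Isl1* held CCAAT boxes 80 and 34 bases before its start. Among the windows not shown, *Nkx6-1*, *Neurod1* and *Foxa2* held the Maf core, and *Foxa2* also held a CCAAT box. No window of the 8 factors held the homeodomain core or the forkhead core. Of the 32851 RefSeq promoter windows of mouse genes, 14.4% held the E-box letters, 2.68% the NK2 letters, 10.4% the RFX letters and 33.8% the CCAAT letters in the same 250 bases. The Maf letters were in 16.1% of them, the homeodomain letters in 4.84% and the forkhead letters in 3.17%. A match is a description of the letters and was not tested for binding.

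Levels of different genes were compared only per length, as transcripts-per-million values (TPM) over the merged exons of each gene. Averaged over the 8 beta cell libraries, *Mafa* had the highest level of the 10 (773 ± 95.01 TPM, SD, *n*=8), followed by *Nkx6-1* (549 ± 26.5 TPM) and *Pdx1* (264 ± 23.3 TPM). The ranges of these 3 genes over the libraries did not overlap one another. From *Pdx1* down, each factor overlapped the next, through *Insm1* (218 TPM), *Neurod1* (152 TPM), *Nkx2-2* (127 TPM), *Foxa2* (83.0 TPM), *Isl1* (81.1 TPM), *Pax6* (63.6 TPM) and *Rfx6* (63.4 TPM). Without mouse 4 the order of all 10 was the same, but *Insm1* no longer overlapped *Neurod1*, nor *Nkx2-2* overlapped *Foxa2*. The merged exons of *Pax6* span 11694 bases, more than those of any other of the 10, which lowers its TPM if the longest exons are little used. In the non-beta cells the order was different. *Isl1* was first (86.2 ± 3.54 TPM, SD, *n*=3), then *Nkx2-2* (81.1 TPM), *Insm1* (74.6 TPM), *Neurod1* (73.2 TPM), *Foxa2* (66.4 TPM), *Nkx6-1* (52.5 TPM), *Mafa* (38.2 TPM), *Pdx1* (37.2 TPM), *Pax6* (34.6 TPM) and *Rfx6* (31.7 TPM). Each of these overlapped the next except *Neurod1* and *Foxa2*. The non-beta levels thus spanned a narrower range than the beta cell levels, and *Mafa* ranked 1 in beta cells and 7 in non-beta cells.

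Of the 10 factors, 9 were higher in beta cells than in non-beta cells in edgeR's quasi-likelihood test (Benjamini-Hochberg adjusted *p* below 0.01), where 17.2% of the 17424 genes tested were called higher (3002 higher and 4157 lower, or 2076 and 4839 with total counts in place of TMM). More than 2-fold higher were 5 of them (*Mafa*, *Nkx6-1*, *Pdx1*, *Insm1* and *Neurod1*), against 6.22% of all genes. In 9 of the 10, every beta cell library was above every non-beta library, which held for 16.5% of all genes. The exception was *Isl1*. None of the 10 was called lower by this test, against 23.9% of all genes. An unadjusted *p* below 0.05, in either direction, was reached by 10 of 10 and by 57.2% of all genes. The median log2 fold change of the 10 was 1.02 and that of all genes tested −0.10. In bulk samples, fewer cells of a type and less RNA per cell cannot be told apart, and this holds for each value below.

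**Figure D1:**
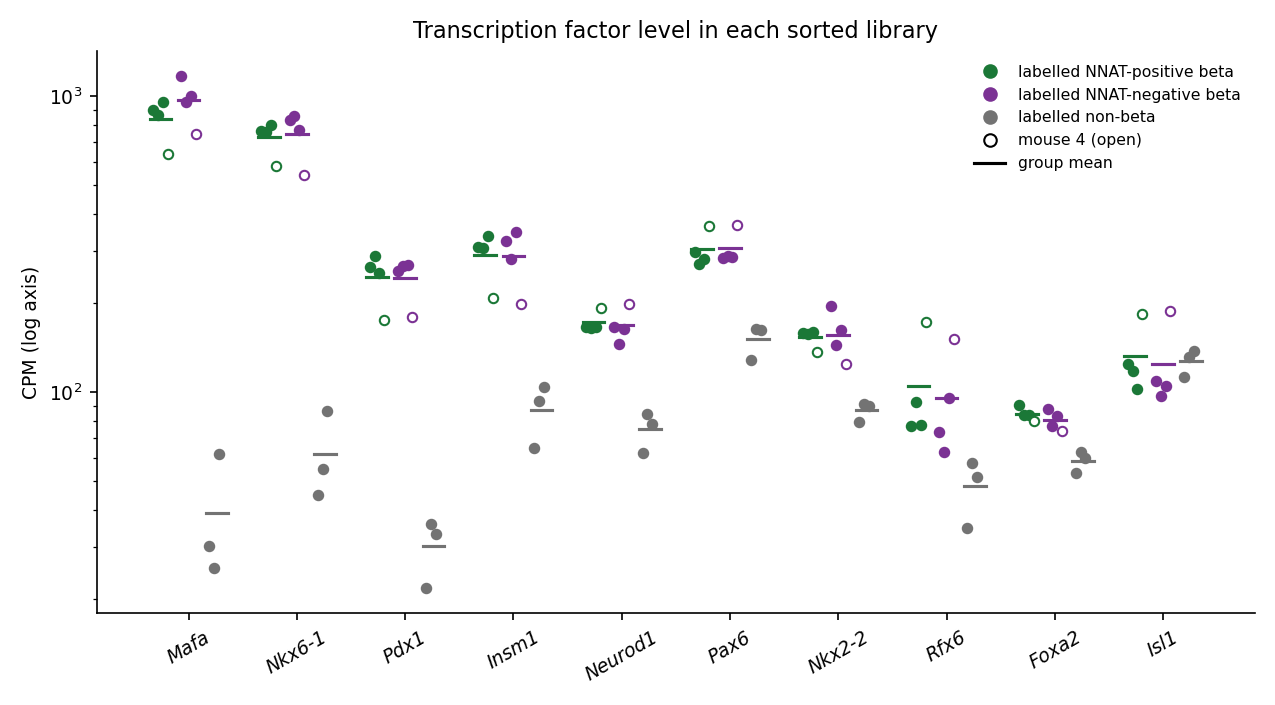
Level of the 10 transcription factors in each of the 11 libraries, in CPM on a log axis, in order of their log2 fold change between beta and non-beta cells. Points are libraries coloured by labelled fraction, open points are mouse 4 and bars are group means (*n*=4, 4 and 3 mice). *Mafa*, *Nkx6-1* and *Pdx1* are far lower in the non-beta libraries, whereas *Isl1* overlaps between the fractions.

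*Mafa*, *Nkx6-1* and *Pdx1* differed most between beta and non-beta cells. *Mafa* encodes a basic leucine zipper factor of mature beta cells that binds the insulin promoter. *Mafa* had 896, 864, 958 and 638 CPM in the NNAT-positive-labelled libraries of mice 1 to 4 and 1168, 960, 999 and 747 CPM in the NNAT-negative-labelled ones. Among non-beta cells, *Mafa* had 30.2, 25.4 and 62.0 CPM in mice 1 to 3. The lowest beta cell library was thus far above the highest non-beta library, with mouse 3 the highest of the non-beta group. The log2 fold change of *Mafa* was 4.71 (SE 0.25, adjusted *p*=1.80e-07, edgeR's quasi-likelihood test), a 26.2-fold difference, which ranked 100 among the 17424 genes.

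*Nkx6-1*, a homeodomain factor that keeps the beta cell programme and represses that of alpha cells, had 762, 759, 800 and 582 CPM in the NNAT-positive-labelled libraries. In the NNAT-negative-labelled ones it had 829, 857, 766 and 540 CPM, and in the non-beta cells 45.0, 54.8 and 86.4 CPM. The groups did not overlap, and mouse 3 was again the highest non-beta library. For *Nkx6-1* the log2 fold change was 3.72 (SE 0.19, adjusted *p*=1.36e-07, edgeR's quasi-likelihood test).

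*Pdx1*, the homeodomain factor needed for the pancreas to form and later a direct activator of insulin and glucose transporter genes, had 264, 288, 253 and 175 CPM in the NNAT-positive-labelled libraries. It had 256, 268, 270 and 180 CPM in the NNAT-negative-labelled ones and 21.9, 35.7 and 33.3 CPM in non-beta cells. No library of one group reached the other. Its log2 fold change was 3.16 (SE 0.13, adjusted *p*=4.44e-08, edgeR's quasi-likelihood test), or 8.92-fold.

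*Insm1*, a zinc finger repressor that endocrine cells need to differentiate, lay between these 3 genes and the rest. It had 309, 306, 338 and 208 CPM in the NNAT-positive-labelled libraries and 324, 282, 349 and 199 CPM in the NNAT-negative-labelled ones. The non-beta cells had 64.6, 93.1 and 104 CPM. The groups did not overlap although mouse 4 was low in both beta cell fractions. *Insm1* was higher in beta cells by 1.88 on the log2 scale (SE 0.13, adjusted *p*=8.33e-07, edgeR's quasi-likelihood test).

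*Neurod1*, *Pax6*, *Nkx2-2*, *Rfx6* and *Foxa2* were all detected at a substantial level in non-beta cells and were higher in beta cells by between 1.44-fold (*Foxa2*) and 2.17-fold (*Neurod1*). *Neurod1*, a basic helix-loop-helix activator of insulin and of endocrine differentiation, had 166, 165, 167 and 193 CPM in the NNAT-positive-labelled libraries and 167, 146, 163 and 199 CPM in the NNAT-negative-labelled ones. Its non-beta levels were 62.4, 84.1 and 78.0 CPM, below every beta cell library. Its log2 fold change was 1.12 (SE 0.10, adjusted *p*=8.05e-06, edgeR's quasi-likelihood test), and its 95% CI of 0.89 to 1.35 held the 2-fold mark. It fell below that mark with total counts in place of TMM (0.95) and without mouse 1 (0.98), where 4 factors were more than 2-fold higher in place of 5. Without the mouse block 6 were, since *Pax6* reached 1.01.

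*Pax6*, a paired box factor that acts in all the hormone-producing islet cells and activates glucagon as well as insulin genes, had 298, 272, 282 and 364 CPM in the NNAT-positive-labelled libraries. It had 284, 289, 287 and 368 CPM in the NNAT-negative-labelled ones and 128, 163 and 163 CPM in non-beta cells. Mouse 4 was the highest in both beta cell fractions, and the groups did not overlap. The log2 fold change was 0.92 (SE 0.09, adjusted *p*=1.85e-05, edgeR's quasi-likelihood test). *Nkx2-2*, an NK2 homeodomain factor needed for several islet cell types, had 159, 157, 160 and 137 CPM in the NNAT-positive-labelled libraries, 196, 144, 162 and 124 CPM in the NNAT-negative-labelled ones and 79.3, 91.0 and 90.0 CPM in non-beta cells. Its groups did not overlap either, and its log2 fold change was 0.90 (SE 0.11, adjusted *p*=4.67e-05 in the same test).

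*Rfx6*, a winged helix factor of endocrine progenitors that adult beta cells keep, had a coefficient of variation of 39.6% over the 8 beta cell libraries and of 15.4% without mouse 4, the highest of the 10 in both cases. It had 76.8, 92.9, 77.3 and 172 CPM in the NNAT-positive-labelled libraries and 73.2, 63.0, 95.3 and 151 CPM in the NNAT-negative-labelled ones. The non-beta cells had 34.9, 57.8 and 51.6 CPM, so the lowest beta cell library was close to the highest non-beta library. The log2 fold change was 0.75 (SE 0.15, adjusted *p*=0.00186, edgeR's quasi-likelihood test), but this call was lost without the mouse block (log2 fold change 1.06, adjusted *p*=0.0181), without mouse 1 (0.58, adjusted *p*=0.0231) and without mouse 3 (0.75, adjusted *p*=0.0109). *Foxa2*, a forkhead factor that opens chromatin in endoderm, had the lowest coefficient of variation of the 10 over all 4 mice (6.65%). Without mouse 4 it was 5.54%, and 4 factors had lower values, the lowest being *Pax6* (3.02%). This place also rests on CPM scaled by TMM. In TPM over the 8 beta cell libraries, *Foxa2* had 83.0 ± 12.8 (SD) and *Nkx6-1* 549 ± 26.5, a smaller spread relative to its mean. *Foxa2* had 90.8, 83.8, 83.8 and 79.9 CPM in the NNAT-positive-labelled libraries, 88.0, 77.2, 83.0 and 74.0 CPM in the NNAT-negative-labelled ones and 53.2, 62.8 and 59.9 CPM in non-beta cells. Although the groups were close, they did not overlap, and the log2 fold change of 0.53 (SE 0.08) passed the test (adjusted *p*=0.000431, edgeR's quasi-likelihood test).

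*Isl1*, a LIM homeodomain factor that all islet endocrine cells use, was the only one of the 10 that did not pass the test. It had 125, 118, 102 and 184 CPM in the NNAT-positive-labelled libraries, 109, 97.0, 105 and 188 CPM in the NNAT-negative-labelled ones and 112, 132 and 138 CPM in non-beta cells. The groups overlapped, with mouse 4 above every other library and 4 of the other 6 beta cell libraries below the lowest non-beta library. With the mouse as a block the log2 fold change was −0.22 (SE 0.10, 95% CI −0.44 to −0.0048, unadjusted *p*=0.0460, adjusted *p*=0.0813, edgeR's quasi-likelihood test). Without the block, where mouse 4 enters the mean of the beta cells, it was 0.01. *Isl1* was called lower in beta cells with total counts in place of TMM (−0.39, adjusted *p*=0.00719 in edgeR's test) and with DESeq2 (−0.30, adjusted *p*=0.00222), so this call rested on the scaling and the tool. Total counts moved the median of all genes by −0.17.

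To place the factors beside the beta cell markers, the level in non-beta cells was expressed as a percentage of the mean of both beta cell fractions of the same mouse. For *Ins1*, the non-beta level was 3.23%, 2.74% and 7.92% of the beta cell level in mice 1 to 3, and *Ins2*, *Ucn3*, *Slc2a2* and *G6pc2* had means between 4.63% and 5.28%. *Mafa* stayed within the range of *Ins1*, with 2.92%, 2.79% and 6.33% (mean 4.01% ± 2.01, SD, *n*=3). *Nkx6-1* had 5.65%, 6.78% and 11.0% (7.82% ± 2.83) and *Pdx1* 8.41%, 12.9% and 12.7% (11.3% ± 2.54). *Iapp*, which encodes amylin, had 9.41% ± 2.81, the highest mean of the 6 markers. Mouse 3 was the highest of the 3 mice for *Mafa*, *Nkx6-1* and all 6 beta cell markers. How much of the non-beta level of these factors came from beta cells or their RNA in that fraction was not tested.

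The percentages of the 10 factors fell into ranges that did not touch. *Mafa*, *Nkx6-1* and *Pdx1* together ran from 2.79% to 12.9%, and *Insm1* had 20.4%, 31.6% and 30.2%. *Neurod1* (46.3% ± 8.39), *Pax6* (53.2% ± 7.82), *Nkx2-2* (53.7% ± 8.05), *Rfx6* (60.1% ± 13.8) and *Foxa2* (69.7% ± 9.43) ran from 37.5% to 78.0% and overlapped one another. *Isl1* had 96.1%, 123% and 133%, above every value of the other factors. Mouse 1 had the lowest percentage of the 3 mice in 9 of the 10 factors, the exception being *Mafa*.

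**Figure D2:**
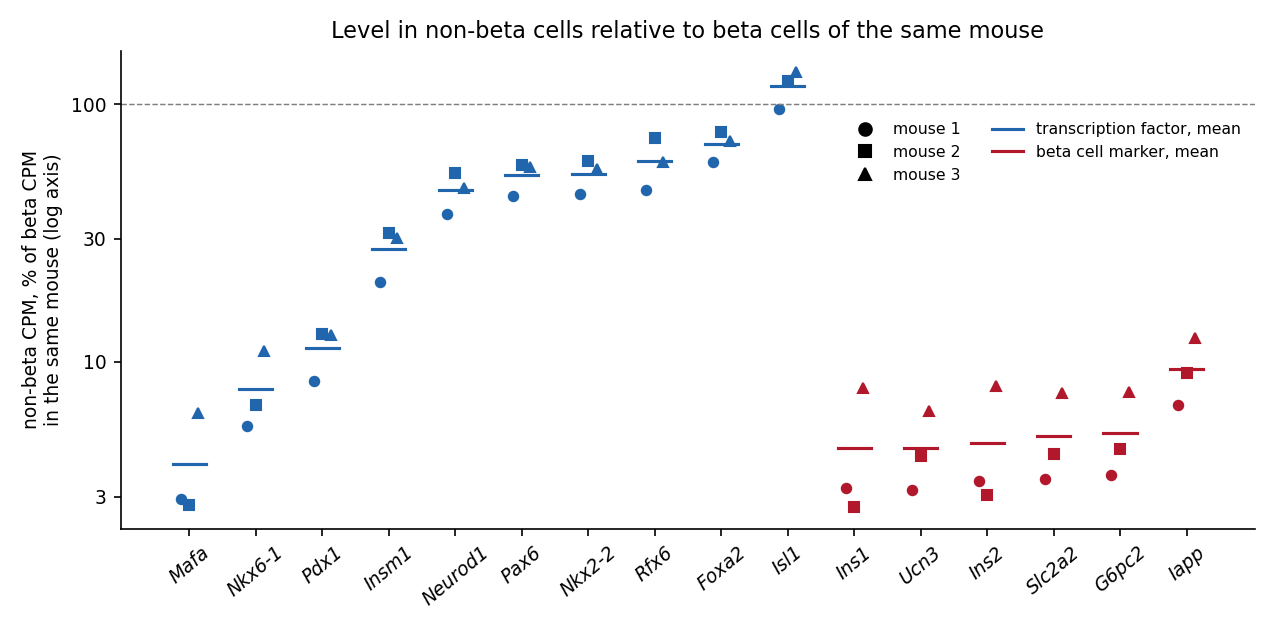
Level in non-beta cells as a percentage of the mean of both beta cell fractions of the same mouse, on a log axis, for the 10 transcription factors (blue) and 6 beta cell markers (red). Symbols are mice 1 to 3, bars are means and the dashed line marks equal levels. *Mafa* lies with the insulin genes, with a mean of 4.01%, and *Isl1* lies around the dashed line. *Insm1* stands alone between *Mafa*, *Nkx6-1* and *Pdx1* on one side and the remaining factors on the other.

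Each fraction gave the same 9 calls when compared with the non-beta cells as a separate contrast of the fit of all 11 libraries. The other beta cell fraction thus still entered the spread and the mouse block. For *Mafa* the log2 fold change was 4.60 (SE 0.26) with the NNAT-positive-labelled libraries and 4.82 (SE 0.26) with the NNAT-negative-labelled ones, and for *Pdx1* both were 3.16 (SE 0.14). These comparisons share their non-beta libraries. Without mouse 4, edgeR's test again called 9 of the 10 higher and 5 more than 2-fold higher, and the log2 fold changes of *Mafa* and *Isl1* were 4.72 and −0.21.

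Between the beta cell fractions, none of the 10 factors was called in either direction by edgeR's quasi-likelihood test, where 9 of 17424 genes (0.0517%) were called higher and 0 lower in the NNAT-positive-labelled libraries. In that fit of all 11 libraries, none of the 10 had an unadjusted *p* below 0.05, against 5.56% of all genes, and DESeq2 called none of them either. *Mafa* had the largest difference, with a log2 fold change of −0.21 (95% CI −0.64 to 0.21, adjusted *p*=0.931), and was lower in the NNAT-positive-labelled library in 4 of 4 mice, by 0.38, 0.15, 0.06 and 0.23 on the log2 scale. When the 8 beta cell libraries were fitted alone, the difference of *Mafa* was −0.24 (SE 0.06, 95% CI −0.39 to −0.10, unadjusted *p*=0.00368, adjusted *p*=0.392, edgeR's quasi-likelihood test), so its interval left out 0 but it was not called. It was then the 1 factor of the 10 with an unadjusted *p* below 0.05, against 7.01% of the 14489 genes tested in that fit. In 8.27% of all genes that library was the lower one in 4 of 4 mice. *Foxa2* was higher in 4 of 4 mice (log2 fold change 0.07, 95% CI −0.11 to 0.26), as were 11.4% of all genes.

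The other 8 factors did not go the same way in all the mice. The log2 fold change of *Nkx6-1* was −0.04 (95% CI −0.38 to 0.30), that of *Pdx1* 0.00 (−0.25 to 0.25) and that of *Insm1* 0.01 (−0.24 to 0.27). *Neurod1* had 0.04 (−0.18 to 0.25), *Pax6* −0.01 (−0.21 to 0.19), *Nkx2-2* −0.02 (−0.25 to 0.21) and *Isl1* 0.10 (−0.12 to 0.32). *Rfx6* had the widest spread between mice, with differences of 0.07, 0.56, −0.30 and 0.19, and a log2 fold change of 0.12 (−0.21 to 0.44). A 2-fold difference lay outside the interval of each of the 10. Without mouse 4, none of the 10 was called either, with *Mafa* at −0.25 and *Nkx6-1* at −0.13. These intervals do not show that the fractions were equal, and for *Mafa* a decrease of 0.64 remained within it.

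**Figure D3:**
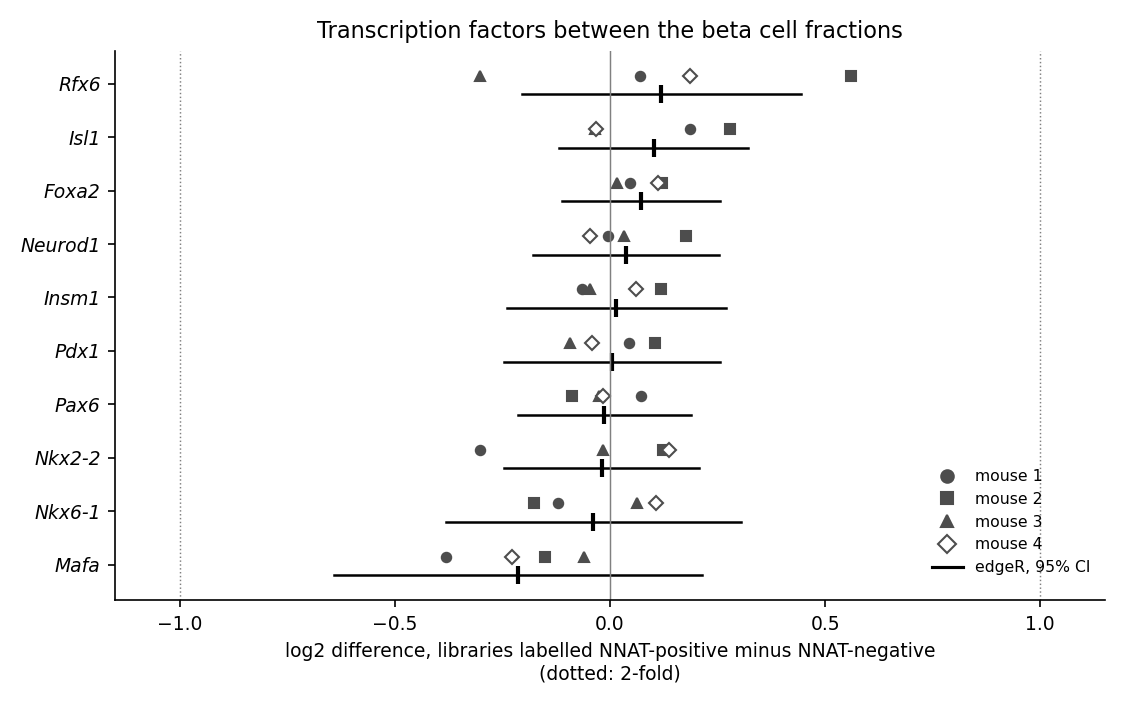
Difference in log2 CPM between the NNAT-positive-labelled and NNAT-negative-labelled libraries of the same mouse (symbols, open for mouse 4) and edgeR's log2 fold change with its 95% CI in the fit of all 11 libraries (lines) for each of the 10 factors. The x axis is the log2 difference and dotted lines mark 2-fold. *Mafa* lies left of 0 in 4 of 4 mice, *Foxa2* right of 0 in 4 of 4, and no interval of that fit reaches 2-fold or leaves out 0.

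Summed markers of other islet cells moved with the labels of these fractions. The alpha cell markers summed to between 2318 and 3645 CPM in the NNAT-positive-labelled libraries and between 1166 and 2059 CPM in the NNAT-negative-labelled ones. Most of this sum was *Gcg*, with means of 2823 and 1371 CPM. *Gc*, another of the 5, had the lower mean in the NNAT-positive-labelled libraries (106 against 112 CPM). The delta cell markers summed to 1403 to 2490 CPM against 543 to 1046 CPM, and the 2 gamma cell markers to 300 to 421 CPM against 89.0 to 159 CPM, with none of the 3 lists at or under the floor. Most of the delta cell sum was *Sst*, with means of 1887 and 743 CPM. All 3 sums were higher in the NNAT-positive-labelled library in 4 of 4 mice, and edgeR called both gamma cell markers, 1 of the 4 delta cell markers and 0 of the 5 alpha cell markers higher there. Their part in the differences of *Mafa* or of any other factor between the fractions was not tested.

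In CPM scaled by TMM, *Pdx1*, *Nkx6-1*, *Nkx2-2*, *Mafa*, *Foxa2* and *Insm1* were lowest in mouse 4 among the 4 mice in both beta cell fractions, as were 19.4% of all genes. *Neurod1*, *Pax6*, *Isl1* and *Rfx6* were the highest in both, as were 21.8% of all genes. *Pdx1* was 0.651 and 0.680 times the mean of mice 1 to 3 in the NNAT-positive-labelled and NNAT-negative-labelled libraries, *Insm1* 0.654 and 0.626 times and *Mafa* 0.704 and 0.717 times. *Rfx6* was 2.09 and 1.96 times that mean and *Isl1* 1.60 and 1.81 times. The insulin genes went the same way as *Mafa* and *Pdx1*, with *Ins2* at 0.627 and 0.524 times and *Ins1* at 0.549 and 0.458 times the mean of the other mice. For some factors the place of mouse 4 depends on the scaling. In TPM, which was not scaled by TMM, the beta cell mean with and without mouse 4 was 83.0 and 77.7 for *Foxa2* and 127 and 124 for *Nkx2-2*. For these genes mouse 4 thus averaged above the other mice. The means were 773 and 774 for *Mafa*, 549 and 550 for *Nkx6-1*, 218 and 224 for *Insm1* and 264 and 269 for *Pdx1*. The other 4 factors had higher means with mouse 4. Since each mouse was 1 preparation, the mouse, its preparation and its libraries cannot be told apart.

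**Figure D4:**
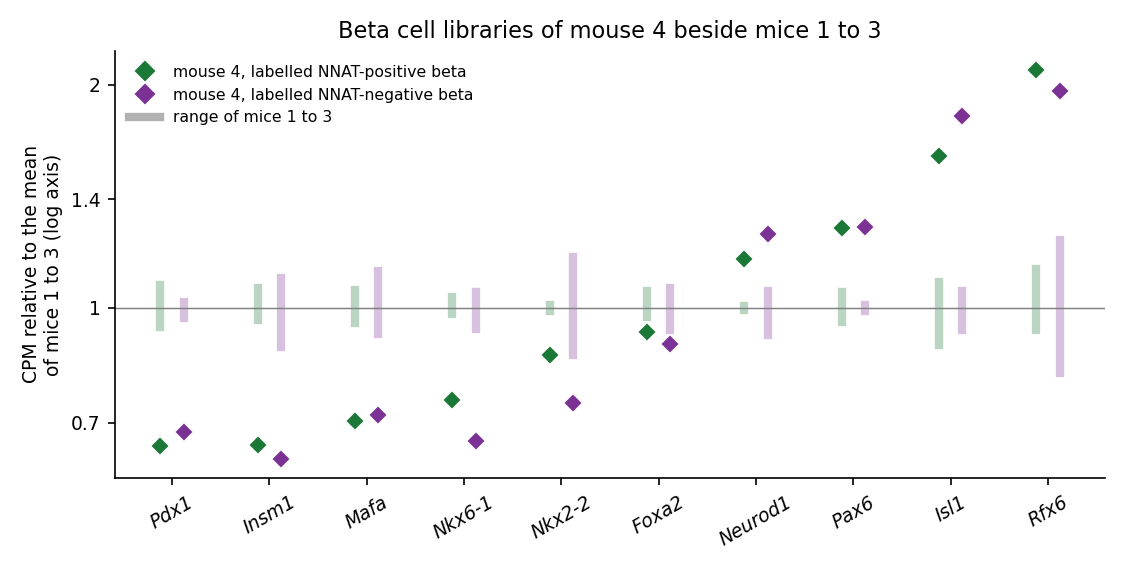
Level, in CPM scaled by TMM, in the beta cell libraries of mouse 4 relative to the mean of mice 1 to 3 in the same labelled fraction (diamonds, log axis), with the range of mice 1 to 3 as shaded bars. For some factors the place of mouse 4 depends on this scaling. The 6 factors on the left lie below that range and the 4 on the right above it in both fractions, from 0.651 for *Pdx1* to 2.09 for *Rfx6* in the NNAT-positive-labelled libraries.

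The genes with the most similar pattern to each factor were those with the smallest root mean square distance in log2 CPM over the 11 libraries, each gene centred on its own mean, among 14039 genes with a mean of at least 1 CPM. For *Mafa* these were *Tmem215* (distance 0.17), *Sytl4* (0.21) and *Ucn3* (0.22), the last encoding the maturity marker urocortin 3. For *Nkx6-1* they were *Papss2* (0.12), *Bace2* (0.16) and *Ppp1r1a* (0.16), and for *Pdx1* *Slc22a23* (0.18), *Dtnbos* (0.18) and *Gpr45* (0.18). The nearest gene to *Insm1* was *Ret* (0.11), which encodes a receptor tyrosine kinase. *Pax6* was among the 3 genes nearest to *Neurod1*, at a distance of 0.11, and no other of the 10 was among the 3 nearest of another. The nearest genes were *Slc38a4* for *Neurod1* (0.06), *Srpk2* for *Pax6* (0.07), *Sphkap* for *Nkx2-2* (0.09), *Fam114a1* for *Foxa2* (0.07), *Rimbp2* for *Rfx6* (0.11) and *Gtf2h2* for *Isl1* (0.09). These distances describe the 11 libraries, which share mice, and carry no test. They also rest on mouse 4, since without it 1 of the 10 nearest genes (*Slc38a4*) and 7 of the 30 genes among the 3 nearest stayed the same.

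Other regulators were set beside the 10. Of 23 further islet factors, 20 passed the filter, of which 8 were higher and 3 lower in beta cells (edgeR, adjusted *p* below 0.01, median log2 fold change 0.29). Of all genes tested, 17.2% were called higher and 23.9% lower, so the 3 lower were fewer than that share would give. *Mnx1*, a homeodomain factor, had 36.4 and 39.1 CPM in the beta cell fractions against 1.89 CPM in non-beta cells and a log2 fold change of 4.35 (SE 0.15), near that of *Mafa*. *Mlxipl*, which encodes the glucose-responsive factor ChREBP, had 3.03 (SE 0.16) and *Glis3*, a zinc finger factor linked to neonatal diabetes, 1.65 (SE 0.12). Among the lower ones were *Bcl11a* (−1.94) and *Prox1* (−1.06). *Pax4* had 0 counts in every library, and *Foxa1* and *Nkx6-2* did not pass the filter either.

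All 7 factors known from alpha and delta cells were lower in beta cells, with a median of −5.16. Of all genes tested, edgeR called 23.9% lower and 17.2% higher, the shares to set beside its counts in this paragraph. *Irx2*, a homeodomain factor of alpha cells, had 4.09 and 1.88 CPM in the beta cell fractions against 82.6 CPM in non-beta cells. The smallest difference was that of *Etv1*, with 36.5 and 27.8 CPM against 183 CPM. Of 11 progenitor, duct and acinar factors, 10 were lower (8 with DESeq2, median −3.24, the same with *Ptf1a* and *Onecut1*, which did not exceed the floor in any beta cell library, set to their bounds). The exception was *Bhlha15*, which encodes the secretory cell factor MIST1 and was higher (log2 fold change 2.03, SE 0.19). Of 14 genes known as targets of beta cell factors, 13 were higher (median 3.81), from *Abcc8* with 0.71 to *Ins1* with 4.55, and *Kcnj11*, a subunit of the ATP-sensitive potassium channel, was not called (0.29, adjusted *p*=0.0275, edgeR's quasi-likelihood test).

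**Figure D5:**
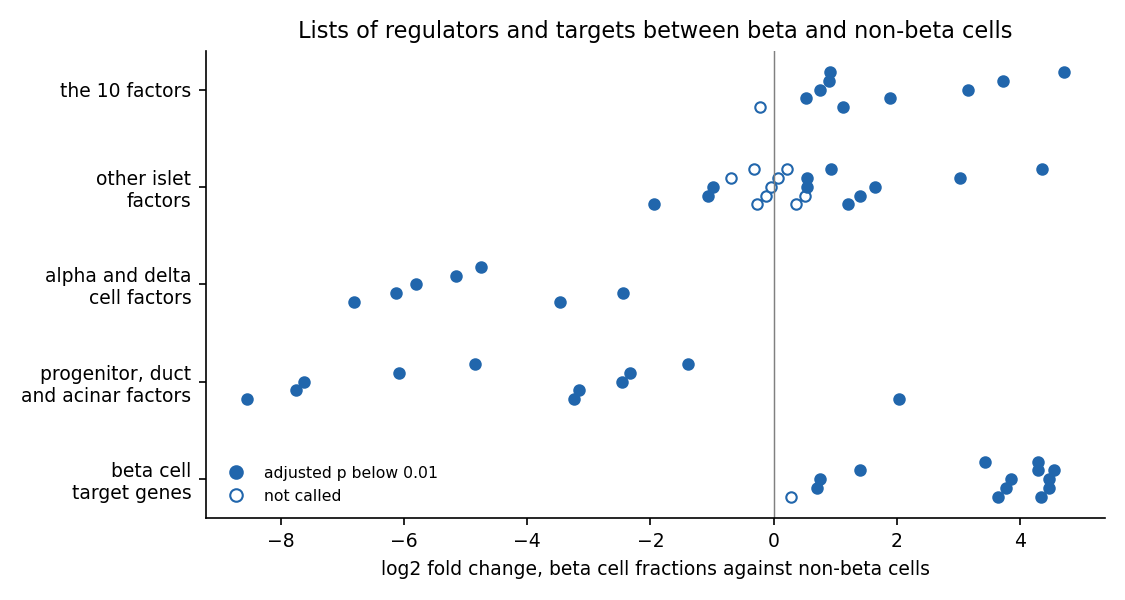
Log2 fold change between the beta cell fractions and non-beta cells (x axis) of the tested genes of each list. Filled points passed an adjusted *p* of 0.01 in edgeR's test and open points did not. The 10 factors run from −0.22 to 4.71, the 7 alpha and delta cell factors all lie below 0, and 11 of the 14 target genes lie above 1.

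Between the beta cell fractions, edgeR called 0 genes of these 4 lists. Of all 17424 genes tested, 5.56% had an unadjusted *p* below 0.05 in edgeR's test, and DESeq2 called 123 higher and 14 lower. The counts below are to be set beside these. The 7 alpha and delta cell factors were all above 0 (median 1.16), with 5 at an unadjusted *p* below 0.05 and 2 called higher by DESeq2, whereas the median of all genes was 0.05. Of the 11 progenitor, duct and acinar factors (median 0.43), 2 had an unadjusted *p* below 0.05 and 2 were called higher by DESeq2. Among the 20 further islet factors (median 0.09), 2 had an unadjusted *p* below 0.05 and DESeq2 called 0. None of the 14 target genes had an unadjusted *p* below 0.05, and their median was 0.02, beside 0.01 for the 10 factors.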

How the data were processed

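Poly(A) RNA of sorted islet cells was sequenced from a directional kit. The authors aligned the reads to mm10 with STAR 2.7.1a, counted them per gencode gene and deposited whole-number counts without normalisation, and their notes also name DESeq2 1.32.0. The counts of 11 libraries were grouped by the sample labels. They were analysed in R 4.3.3 with edgeR 4.0.16, using TMM, filterByExpr by fraction, glmQLFit and glmQLFTest on all libraries in 1 fit with the mouse as a block, and *p* values were adjusted over 17424 genes by the Benjamini-Hochberg method. The threshold for a call was an adjusted *p* of 0.01. Each SE was the estimate over the root of its *F* statistic. Log2 CPM used a prior count of 2.

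The block rests on the labels, in which libraries with the same number come from 1 mouse. After subtraction of the mean of its fraction, the 2 beta cell libraries of a mouse had a mean Pearson's *r* over genes of 0.314 (4 pairs, 0.182 to 0.657), and pairs from different mice −0.103 (12 pairs). Mouse 4 widened this gap. Among mice 1 to 3, same-mouse pairs had 0.182 to 0.219 (3 pairs) and the others 0.00552 to 0.0931 (6 pairs). A beta and a non-beta library of the same mouse had 0.0321 to 0.125 (6 pairs, mean 0.0828), against a mean of −0.0276 for different mice (18 pairs). Gene coordinates, exon lengths for TPM and overlaps came from gencode release M21 on GRCm38, which matched 55141 of the 55401 identifiers. Promoter windows came from RefSeq.

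The 10 factors, the 4 lists, the markers and the rule of 3 nearest genes were chosen with earlier results of these data known, so no *p* is adjusted over a list alone. *Meg3* and *Malat1* were named after their values had been seen. Genes named from a list were those called or with the largest or smallest changes. The fits were tested on simulated counts with known changes. Alternatives covered the block, the normalisation, the most abundant genes, the filter, DESeq2 1.42.0, the threshold, the libraries in the fit and each mouse left out in turn. Coefficients of variation, the order of levels and the nearest genes without mouse 4 were added after seeing the data. Some genes of the lists are not reported here by name.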

Additional observations from a re-analysis of the deposited data

Results flagged for a closer look

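In a group of 4 libraries, a library was picked out where its gap to the nearest other, over the range of the group, exceeded the 95% critical value of Dixon's test, which chance alone does in about 1 in 20 groups. Of the 20 groups of the 10 factors in the beta cell fractions, 6 met this, and in each of the 6 the library was that of mouse 4. Over all 17424 genes in both fractions, 13.5% of the groups met it, and 8.11% did so with mouse 4 as that library. *Rfx6* had 172 CPM and *Neurod1* 193 CPM in the NNAT-positive-labelled library, and *Pax6* had 368 CPM and *Isl1* 188 CPM in the NNAT-negative-labelled one, each the highest of its group. *Pdx1* had 180 CPM in the NNAT-negative-labelled library and *Nkx2-2* 137 CPM in the NNAT-positive-labelled one, each the lowest of its group. These values were CPM scaled by TMM, and the low place of *Nkx2-2* depends on that scaling. In TPM, its mean over the beta cell libraries was 127 with mouse 4 and 124 without it. The groups of 3 non-beta libraries were too small for this test.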

How the results depend on the processing

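Under every alternative run, the count of the 10 factors called higher in beta cells was 8 or 9, none was called between the beta cell fractions, and *Pdx1*, *Nkx6-1*, *Nkx2-2*, *Mafa*, *Neurod1*, *Pax6*, *Foxa2* and *Insm1* kept their call in all 12 alternatives. Those 12 include the comparisons of each beta cell fraction with the non-beta cells, which are contrasts of the main fit. The count called lower was 1 in place of 0 with total counts and with DESeq2, in both cases *Isl1*. Without the replicate block *Isl1* changed sign (0.014) and *Rfx6* lost its call (1.06), and this block changed no other call of the 10. With each mouse left out in turn, *Rfx6* was between 0.58 and 0.90. Of the 20 further islet factors tested, DESeq2 called 5 lower in place of 3. With total counts or size factors of DESeq2 in place of TMM, the level left in non-beta cells moved by less than the SD between mice for each factor. *Foxa2* came closest to that SD, with 69.7% in the main setting and 78.3% with total counts (SD 9.43). Leaving 1 mouse out cannot move a mean of 3 mice by more than their SD, so those values do not test this.

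Over all genes, the count called higher in the NNAT-positive-labelled libraries was 9. It was 1 without the replicate block, 29 with no filter (1 lower), 123 with DESeq2 (14 lower) and 18 at an adjusted *p* of 0.05, and it ran from 0 to 5 with each mouse left out, with 0 without mouse 3. The cause of these shifts was not tested. Differences of the factors between the fractions were close to 0 and some changed sign. *Pdx1* was −0.033 with size factors of DESeq2, −0.033 without the 10 most abundant genes, −0.030 with no filter, −0.033 with DESeq2 and −0.036 with the beta cell libraries alone. *Insm1* was −0.023, −0.023, −0.019, −0.023 and −0.022 in the same settings. With total counts *Nkx2-2* was 0.0097 and *Pax6* 0.015. With each mouse left out in turn, *Pdx1* ran from −0.029 to 0.036, *Insm1* from −0.040 to 0.045, *Nkx6-1* from −0.13 to 0.0082, *Nkx2-2* from −0.11 to 0.082, *Neurod1* from −0.0084 to 0.054, *Pax6* from −0.051 to 0.0095 and *Rfx6* from −0.012 to 0.26. None of these differences was called under any alternative.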
